A study of Mus musculus with 11 samples.

Results

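The genes described here are 10 colonic genes of bicarbonate and salt transport: the carbonic anhydrase genes Car1, Car2, Car4 and Car8, the anion exchanger Slc26a3, the sodium/proton exchangers Slc9a2 and Slc9a3, the chloride channel Cftr, and the peptide hormone genes Guca2a (guanylin) and Guca2b (uroguanylin). They were taken as the probe sets that the array's annotation assigns to exactly 1 of these symbols, which gave 18 probe sets of 34945 with a single symbol, and all 10 genes of 18193. The study profiled total RNA from the colon of adult C57BL/6 mice on 11 Affymetrix expression arrays. There were 4 arrays from mice injected with imatinib 3 h earlier, 4 arrays from mice injected 12 h earlier, and 3 control arrays from before imatinib. Imatinib is an inhibitor of tyrosine kinases that include Abl, Kit and the PDGF receptors, and the series is titled for EphB-Abl signalling in the start and growth of gut tumours. The labels give no dose, injection route, sex, exact age or segment of colon. Vehicle-treated and time-matched controls were not analysed here, and effects of the drug, of its injection and of the time of day cannot be told apart in these groups. Nor do the labels tie each numbered sample to its own animal, and the p-values therefore describe the spread among these samples, which may be technical.

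Colonocytes, the absorptive cells of the colon surface, take up sodium chloride by running a proton exchanger and a bicarbonate exchanger side by side. Carbonic anhydrases supply both from carbon dioxide and water: the enzyme yields a proton, which Slc9a2 and Slc9a3 trade for luminal sodium, and a bicarbonate ion, which Slc26a3 trades for luminal chloride. Cftr works in the opposite sense and lets chloride and bicarbonate out. Guanylin and uroguanylin are secreted into the lumen and bind the receptor guanylyl cyclase C (Gucy2c), and the cyclic GMP that it makes acts through the kinase Prkg2 to open Cftr and to inhibit Slc9a3.

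The deposited values are linear signals, 1 per probe set, with each array scaled to the same trimmed mean. Array medians ran from 16.8 to 23.9, and the highest value in the table was 13397.5. The table holds neither detection calls nor saturation flags, so the brightest signals may be compressed and signals below about 16 carry little information. Absorptive colonocyte markers were read to describe the tissue, which does not by itself test the colon label. Of these markers 19 of 20 were measured and 0 had a mean signal under 16. Their summed signal lay between 51073 and 66011 at 3 h and between 50349 and 66274 at 12 h, against 54834 to 63659 in control, and the groups overlapped. That sum is dominated by its brightest markers, and Slc51a and Tmigd1 of the same list were called upward at both times, as described with the other markers. Since the samples are whole tissue, fewer cells of a type and less RNA per cell cannot be told apart. Transcripts of the exocrine pancreas were high on 5 arrays (3 h replicate 3, 12 h replicates 1, 3 and 4, and control replicate 1), where the 12 measured acinar markers had a mean log2 level of 11.12 to 13.17, against 5.216 to 7.634 on the other 6. Precision is limited throughout by the number of arrays.

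Car8 rose at both times and Guca2b at 12 h, while Car1, Car2, Car4, Slc26a3 and Guca2a had changes whose 95% intervals included 0. Each gene was tested at its brightest probe set by limma on log2(signal + 16), with p adjusted over all 18193 genes and calls at an adjusted p under 0.05. In the 3 h arrays set against control 1 of 10 members was called, Car8, upward, where 2.54% of all genes were called and 1.43% were called upward. In the 12 h arrays 2 of 10 were called, Car8 and Guca2b, both upward, where 1.62% of all genes were called and 0.781% upward. Between 12 h and 3 h limma called 0 of 10, where 4.08% of all genes were called. There 3 members (Car8, Cftr and Slc9a2) had an unadjusted p under 0.05, as did 17.7% of all genes. Against control, 4 members (Car8, Slc9a2, Slc9a3 and Guca2b) met that unadjusted threshold at 3 h and 3 (Car8, Slc9a3 and Guca2b) at 12 h, where 15% and 15.8% of all genes did. The 4 arrays at 3 h lay above all 3 controls for 4 members (Car8, Slc9a2, Slc9a3 and Guca2b), where this held for 6.76% of all genes. At 12 h the same held for 3 members (Car8, Slc9a3 and Guca2b), where the share of all genes was 6.02%. Of the 10 members, 0 had all arrays below the controls at 3 h or at 12 h, where this held for 8.55% and 6.96% of all genes. The median log2 change of the members was 0.12 at 3 h and 0.10 at 12 h, against −0.02 and −0.01 over all genes. Both comparisons with control use the same 3 control arrays, so they are not independent.

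**Figure D1:**
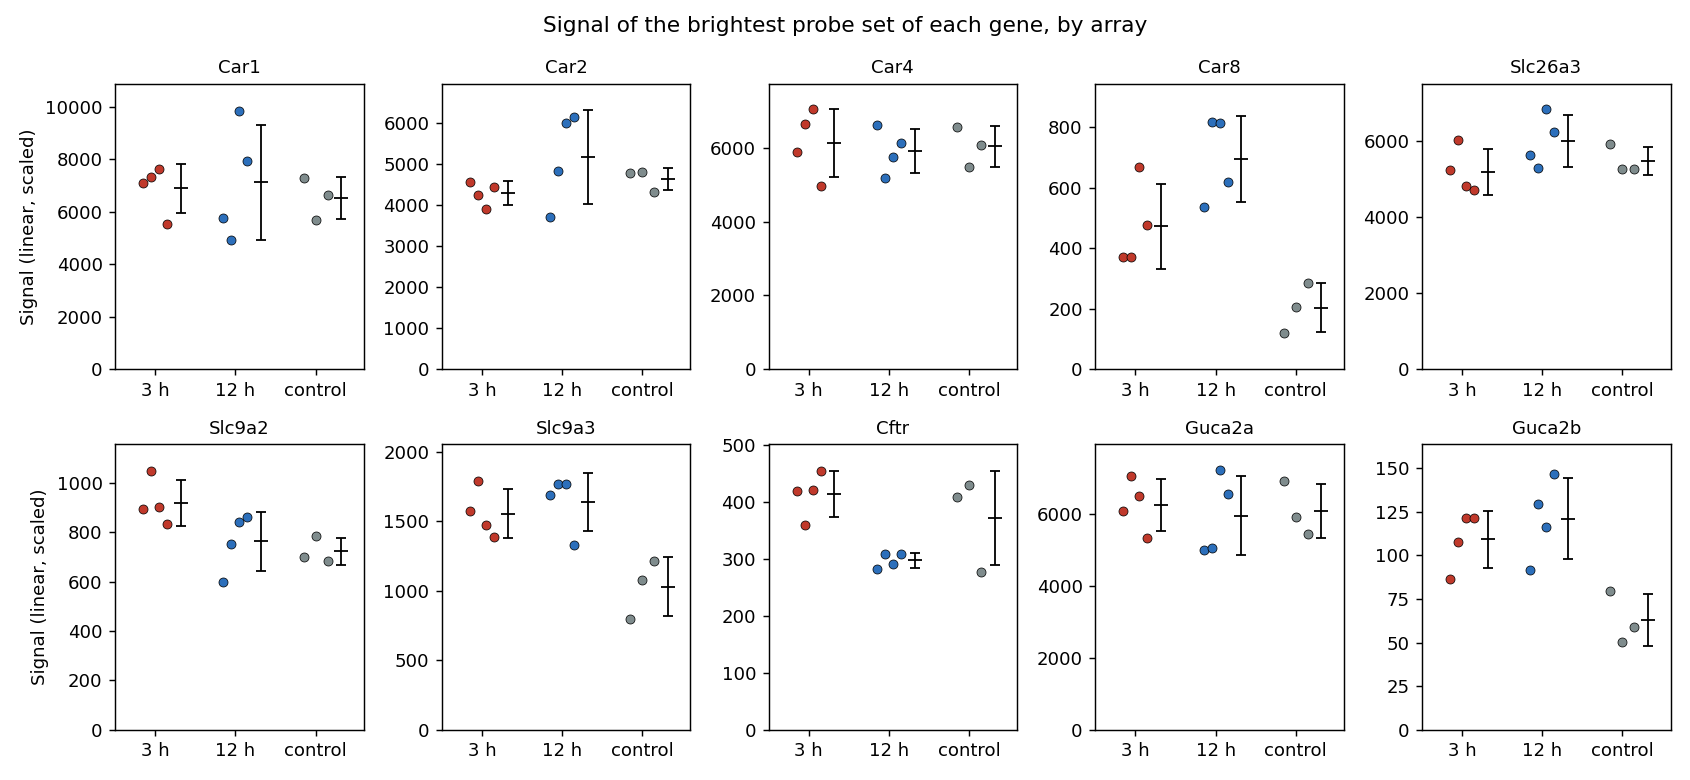
Signal of the brightest probe set of each of the 10 genes on every array (linear scale, each panel with its own axis from 0). Points are arrays at 3 h, 12 h and in control, and the bar beside them is the mean ± SD. Car8, Slc9a3 and Guca2b have every array at 3 h and at 12 h above the 3 controls, and Cftr has every 12 h array below the 3 h arrays.

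Car1, a cytosolic carbonic anhydrase that is abundant in colonic epithelium and in red cells, had signals of 7116.1, 7313.9, 7626.6 and 5522.0 at 3 h and of 5780.6, 4933.1, 9844.3 and 7934.5 at 12 h, against 7298.5, 5677.7 and 6630.2 in control. The 12 h arrays held both the lowest and the highest value of the series, and all groups overlapped. The log2 change was 0.07 ± 0.21 (SE; limma adjusted p = 0.928) at 3 h and 0.08 ± 0.21 (SE; adjusted p = 0.914) at 12 h. The 95% interval of the fold change ran from 0.764 to 1.45 at 3 h and from 0.767 to 1.46 at 12 h, so changes of that size in either direction were not excluded. Of 12 erythroid markers 7 were measured, since the probe sets shared by several haemoglobin genes were not used, and the part of blood in the Car1 values was not tested. The summed signal of the 7 was 34.8 to 79.5 at 3 h and 31.7 to 64.4 at 12 h, against 47.1 to 70.8 in control. Of the 7 markers 6 had mean signals under 16, so that sum carries little information on blood.

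Car2, the fast cytosolic isoenzyme, had signals of 4565.1, 4254.2, 3890.9 and 4432.9 at 3 h and of 3697.5, 4829.0, 5999.5 and 6153.5 at 12 h, against 4771.7, 4807.1 and 4319.1 in control. The 12 h arrays were the most scattered, at 5170 ± 1146 (SD, n = 4), and enclosed all the controls. The log2 change was −0.11 ± 0.16 (SE; limma adjusted p = 0.829) at 3 h and 0.13 ± 0.16 (SE; adjusted p = 0.769) at 12 h, with 95% intervals of the fold change of 0.728 to 1.18 and 0.862 to 1.39. Car1 and Car2 lie close together on chromosome 3 with Car3 as the 1 coding gene between them.

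Car4, which is anchored to the apical membrane by a lipid tail, averaged 6150 ± 930 (SD, n = 4) at 3 h and 5934 ± 602 (SD, n = 4) at 12 h, against 6055 ± 550 (SD, n = 3) in control. The groups overlapped at both of its probe sets. Its log2 changes of 0.01 ± 0.14 (SE) and −0.03 ± 0.14 (SE) were among the smallest of the 10 genes, and its second probe set gave 0.05 ± 0.15 and 0.04 ± 0.15 (SE). The 95% interval of the fold change was 0.823 to 1.24 at 3 h and 0.798 to 1.2 at 12 h.

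Car8 encodes a carbonic anhydrase-related protein that lacks a zinc-binding histidine of the active site and does not hydrate carbon dioxide, and in brain it is known to bind the inositol trisphosphate receptor. Its brightest probe set had signals of 370.3, 370.0, 669.8 and 477.8 at 3 h and of 535.2, 818.2, 814.5 and 617.7 at 12 h, against 119.9, 204.6 and 283.1 in control. Every array from the treated mice lay above every control, whereas the times overlapped each other. Car8 was 2.28-fold higher at 3 h (95% interval 1.51 to 3.44; log2 change 1.19 ± 0.27 SE; limma adjusted p = 0.0411) and 3.38-fold higher at 12 h (95% interval 2.24 to 5.09; log2 change 1.76 ± 0.27 SE; adjusted p = 0.0101). The difference between 12 h and 3 h, 0.57 ± 0.25 (SE; limma adjusted p = 0.265), did not pass the test.

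The other Car8 probe sets were dim. The second had signals of 22.9, 50.8, 52.1 and 43.7 at 3 h and of 43.4, 56.2, 76.1 and 60.3 at 12 h, against 15.4, 21.3 and 28.9 in control. The third ranged from 15.6 to 39.4 at 3 h and from 33.7 to 37.9 at 12 h, against 12.9 to 17.0 in control. At both of them all 12 h arrays lay above the controls and 1 array at 3 h lay within them. Tested over all 34945 probe sets, their log2 changes at 12 h were 0.98 ± 0.21 and 0.71 ± 0.16 (SE), with adjusted p = 0.0553 and 0.0612. The brightest probe set had adjusted p = 0.0573 at 3 h and 0.0147 at 12 h in that fit.

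**Figure D2:**
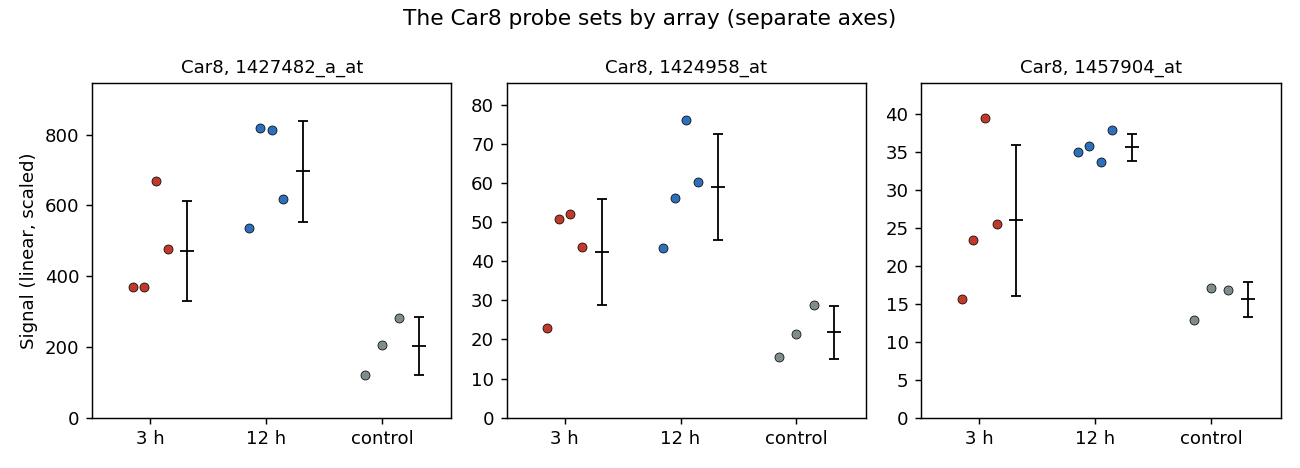
Signal of the 3 Car8 probe sets on every array (linear scale, separate axes from 0), with the mean ± SD of each group beside the points. All 12 h arrays lie above the controls at each probe set, and the 3 h arrays do so at the brightest.

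The 12 h call of Car8 was kept when any 1 of the 11 arrays was left out (limma adjusted p at most 0.0489), whereas its 3 h call rested on most of the arrays. At 3 h the adjusted p was 0.164 without control replicate 1 and 0.112 without control replicate 2. Leaving out one of the 3 h replicates 1 to 4 gave 0.0589, 0.0609, 0.0992 and 0.0908. Leaving out one of the 12 h replicates 2 to 4 gave 0.0543, 0.0503 and 0.0502. With the 5 arrays high in pancreatic transcripts left out, a choice made after seeing the data, the log2 difference for Car8 was 0.71 ± 0.18 (SE; adjusted p = 0.211) at 3 h and 1.70 ± 0.25 (SE; adjusted p = 0.13) at 12 h. That fit keeps a single 12 h array, which is assumed to vary like the other groups.

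Slc26a3, the chloride/bicarbonate exchanger whose loss causes congenital chloride diarrhoea in humans, had signals of 5223.5, 6014.4, 4794.9 and 4690.6 at 3 h and of 5612.6, 5285.2, 6826.8 and 6229.0 at 12 h, against 5896.6, 5240.5 and 5242.4 in control. The groups overlapped in every pairing. The log2 change was −0.08 ± 0.12 (SE; limma adjusted p = 0.842) at 3 h and 0.13 ± 0.12 (SE; adjusted p = 0.691) at 12 h, and the 95% interval of the fold change was 0.787 to 1.14 and 0.91 to 1.31. Its other bright probe sets gave −0.13 ± 0.11 and −0.10 ± 0.16 (SE) at 3 h and 0.16 ± 0.11 and 0.04 ± 0.16 (SE) at 12 h. The fourth probe set had signals of 11.8 to 82.7 and gave negative values at both times (−0.45 ± 0.35 and −0.57 ± 0.35 SE), none of which passed the test.

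Slc9a3, the main apical sodium/proton exchanger of the absorptive gut, had signals of 1572.0, 1788.0, 1472.5 and 1382.1 at 3 h and of 1690.6, 1765.7, 1765.9 and 1327.5 at 12 h, against 798.2, 1074.9 and 1214.4 in control. Every array at either time lay above every control, and the times overlapped. The mean signal was 1.51-fold that of control at 3 h and 1.59-fold at 12 h, but neither difference passed the test over all genes. The log2 change was 0.60 ± 0.16 (SE; limma adjusted p = 0.0682) at 3 h, with a 95% interval of 0.26 to 0.94. At 12 h it was 0.67 ± 0.16 (SE; limma adjusted p = 0.0542), with a 95% interval of 0.33 to 1.01. At 12 h the adjusted p was 0.0461 without control replicate 3 and 0.0286 without 12 h replicate 4. A second probe set, at signals of 8.6 to 26.4, lay below or near the offset of 16 and gave 0.15 ± 0.13 and 0.37 ± 0.13 (SE).

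Slc9a2, a related apical exchanger, had signals of 893.6, 1049.0, 904.2 and 832.4 at 3 h and of 599.9, 751.4, 843.3 and 860.9 at 12 h, against 701.2, 785.2 and 684.5 in control. The 3 h arrays lay above the controls, and the 12 h arrays enclosed them. The log2 change was 0.34 ± 0.13 (SE; limma adjusted p = 0.245) at 3 h and 0.07 ± 0.13 (SE; adjusted p = 0.88) at 12 h, and 12 h less 3 h gave −0.27 ± 0.12 (SE; adjusted p = 0.279).

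Cftr, the cyclic nucleotide-regulated route for chloride and bicarbonate secretion, was the member whose times stood apart from each other. Its signals were 281.0, 307.7, 290.2 and 308.6 at 12 h, against 419.3, 359.0, 420.5 and 454.3 at 3 h. All 12 h arrays lay below all 3 h arrays, as they did for 5.26% of all genes. The log2 difference of −0.45 ± 0.13 (SE; limma adjusted p = 0.0814) did not pass the test over all genes. Leaving out control replicate 3 gave an adjusted p of 0.0243. The controls, at 407.8, 428.6 and 276.7, spanned both times. Against them the log2 change was 0.17 ± 0.14 (SE; limma adjusted p = 0.664) at 3 h and −0.28 ± 0.14 (SE; adjusted p = 0.364) at 12 h. The second Cftr probe set had signals of 6.3 to 17.8 and gave a difference between 12 h and 3 h of −0.08 ± 0.14 (SE).

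**Figure D3:**
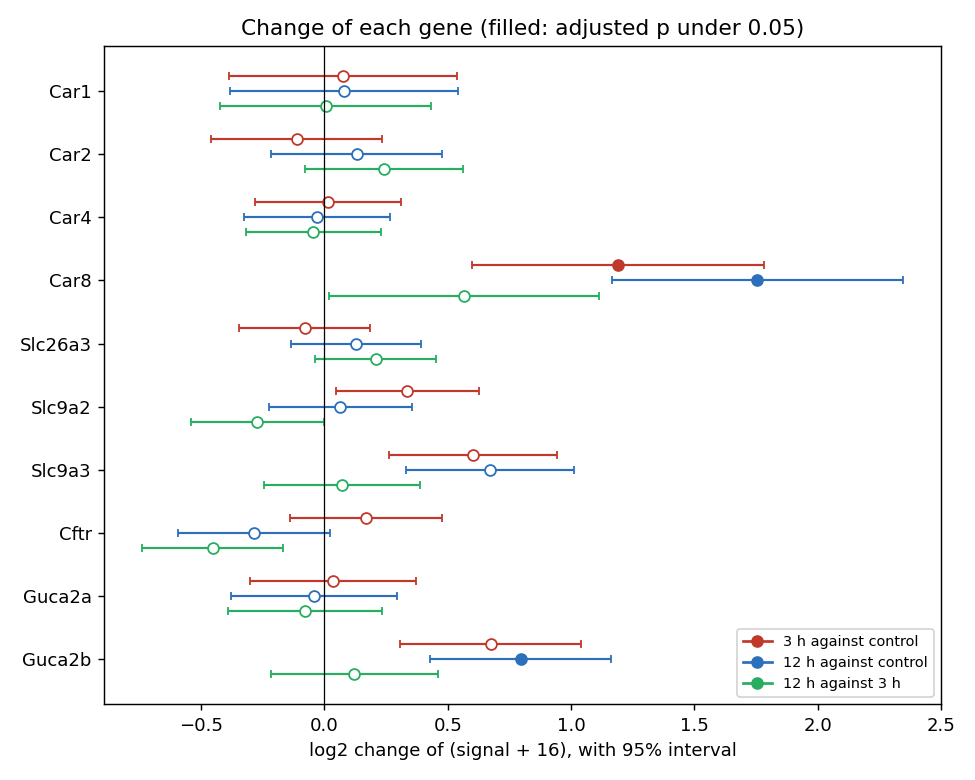
Log2 change of (signal + 16) for each gene at its brightest probe set, with the 95% interval, for each time set against control and for the later time set against the earlier. Filled points passed an adjusted p of 0.05 (Car8 at both times and Guca2b at 12 h), and the intervals of Car1, Car2, Car4, Slc26a3 and Guca2a all include 0.

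The guanylin and uroguanylin genes are neighbours on chromosome 4 with no coding gene between them, lie on opposite strands, and gave different values. Their upstream sequences are shown because 1 of the pair was called and the other was not, together with that of Slc9a3, the exchanger that guanylin signalling inhibits and whose arrays, like those of Guca2b, did not overlap the controls. Each is the 250 bases before the annotated start, 5′ to 3′ in the gene's direction, from RefSeq on GRCm38.p6. The positions are chr4:119658946-119659195 on the minus strand for Guca2b, chr4:119637482-119637731 on the plus strand for Guca2a and chr13:74121163-74121412 on the plus strand for Slc9a3. Capitals mark matches on either strand to 6 motifs of factors known from gut epithelium, hormone response or the clock, and no match overlapped another.
Guca2b promoter: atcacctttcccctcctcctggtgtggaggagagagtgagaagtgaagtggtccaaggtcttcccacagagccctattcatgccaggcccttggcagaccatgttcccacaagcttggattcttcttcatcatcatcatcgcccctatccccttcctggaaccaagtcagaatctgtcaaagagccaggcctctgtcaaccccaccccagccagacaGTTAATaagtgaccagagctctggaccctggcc
Guca2a promoter: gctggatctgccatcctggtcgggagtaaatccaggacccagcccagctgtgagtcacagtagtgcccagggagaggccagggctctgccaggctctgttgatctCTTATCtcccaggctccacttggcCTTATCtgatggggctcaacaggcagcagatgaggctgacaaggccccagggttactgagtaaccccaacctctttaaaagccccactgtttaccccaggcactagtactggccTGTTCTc
Slc9a3 promoter: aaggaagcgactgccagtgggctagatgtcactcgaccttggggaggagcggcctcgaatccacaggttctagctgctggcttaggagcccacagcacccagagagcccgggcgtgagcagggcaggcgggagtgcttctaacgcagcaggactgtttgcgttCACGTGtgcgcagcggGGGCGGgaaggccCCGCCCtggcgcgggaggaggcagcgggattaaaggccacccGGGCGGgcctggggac

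The motifs searched were the HNF1 half-site GTTAAT, the E-box CACGTG, the GC box GGGCGG, the glucocorticoid receptor half-site AGAACA, the CDX core TTTAT and the GATA site GATAAG. They were present in 6.43%, 6.02%, 32.7%, 16.1%, 37.3% and 6.55% of 32851 such windows of all genes. The Guca2b window held 1 match, the HNF1 half-site at 33 to 28 bases before the start. The Guca2a window held 2 GATA sites, at 145 to 140 and 121 to 116 bases before the start, and a glucocorticoid receptor half-site at 7 to 2 bases. The Slc9a3 window held an E-box at 87 to 82 bases before the start and 3 GC boxes. The matches are a description of the letters, and binding was not measured. Of the 10 members 6 were found in the promoter table.

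Guca2b had signals of 86.7, 107.8, 121.6 and 121.2 at 3 h and of 91.4, 129.6, 116.3 and 146.6 at 12 h, against 79.7, 50.3 and 58.7 in control. Every array at either time lay above every control and the times overlapped. At 12 h Guca2b rose 1.74-fold (95% interval 1.35 to 2.24; log2 change 0.80 ± 0.17 SE; limma adjusted p = 0.0392). At 3 h the log2 change was 0.67 ± 0.17 (SE; limma adjusted p = 0.0587) with a 95% interval of 0.31 to 1.04, and without 12 h replicate 1 its adjusted p was 0.0404. Adjusted over all 34945 probe sets, the 12 h p of Guca2b was 0.0554. The 12 h call was also lost without any 1 of 9 arrays. Omission of control replicates 1 to 3 gave adjusted p-values of 0.0546, 0.161 and 0.0934. Omission of 3 h replicates 2 to 4 gave 0.0592, 0.0538 and 0.0571, and of 12 h replicates 2 to 4, 0.0969, 0.0866 and 0.0588. Without the 5 arrays high in pancreatic transcripts, chosen after seeing the data, the log2 change at 12 h was 1.05 ± 0.21 (SE; adjusted p = 0.28).

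Guca2a had signals of 6087.7, 7058.8, 6500.9 and 5322.5 at 3 h and of 5000.2, 5043.4, 7224.0 and 6546.3 at 12 h, against 6909.4, 5911.5 and 5430.9 in control. All groups overlapped, and the controls lay inside the range of the 12 h arrays. The log2 change was 0.04 ± 0.15 (SE; limma adjusted p = 0.953) at 3 h and −0.04 ± 0.15 (SE; adjusted p = 0.94) at 12 h. The 95% interval of the fold change was 0.812 to 1.3 at 3 h and 0.769 to 1.23 at 12 h. Whether the changes of the neighbours differ from each other was not tested.

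Around these hormones, 10 genes of cyclic GMP signalling had been listed, and all were measured. At 3 h 2 rose and 1 fell. At 12 h 0 were called by limma, and 2 had an unadjusted p under 0.05, as did 15.8% of all genes. Between 12 h and 3 h 2 rose and 1 fell. In these comparisons limma called 2.54%, 1.62% and 4.08% of all genes. The median log2 change of the list was −0.10, −0.05 and −0.07 in the 3 comparisons, against −0.02, −0.01 and 0.01 over all genes. The receptor Gucy2c averaged 464.6 ± 84.7 (SD, n = 4) at 3 h and 563.6 ± 117 (SD, n = 4) at 12 h, against 439.3 ± 18.6 (SD, n = 3) in control, and did not pass the test at either time (adjusted p = 0.918 and 0.356).

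Pde9a, a phosphodiesterase that degrades cyclic GMP, rose at 3 h. Its signals were 1142.3, 926.2, 1011.2 and 1073.7 at 3 h, against 381.7, 389.7 and 502.6 in control, and the groups were far apart (log2 change 1.27 ± 0.18 SE; limma adjusted p = 0.00387, and at most 0.0289 with any 1 array left out). At 12 h the signals of 573.5, 694.7, 888.8 and 483.5 lay below those at 3 h (−0.67 ± 0.17 SE; limma adjusted p = 0.045). That call between the times was lost when any 1 of 9 arrays was left out, all but control replicate 3 and 12 h replicate 3, with an adjusted p of at most 0.122. Prkg2, the membrane-bound cyclic GMP kinase, had signals of 191.1, 191.3, 272.1 and 223.7 at 3 h, against 48.0, 61.0 and 123.3 in control. It rose at 3 h (1.40 ± 0.27 SE; limma adjusted p = 0.0194), a call lost without control replicates 1 or 2 or 3 h replicates 3 or 4 (adjusted p = 0.0982, 0.089, 0.0605 and 0.0502). At 12 h its log2 change was 1.13 ± 0.27 (SE; limma adjusted p = 0.0606). Its other probe sets gave 1.65 ± 0.31 and 1.27 ± 0.33 (SE) at 3 h and 1.62 ± 0.31 and 1.37 ± 0.33 (SE) at 12 h, with adjusted p over all probe sets of 0.0368 and 0.0807 at 12 h.

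The remaining calls in that list were the subunits of the soluble, nitric oxide-sensitive guanylyl cyclase, an enzyme known mainly from smooth muscle and vessels. Gucy1a1 fell at 3 h, to 66.95 ± 11.9 (SD, n = 4) against 134.9 ± 6.91 (SD, n = 3) in control (log2 change −0.87 ± 0.15 SE; limma adjusted p = 0.012), a call lost without control replicates 1 or 2 (adjusted p = 0.0571 and 0.0599). Gucy1a1 and Gucy1b1 rose between 12 h and 3 h by 0.84 ± 0.14 and 0.74 ± 0.11 (SE; limma adjusted p = 0.00654 and 0.00357). Dimmer probe sets gave log2 differences between 12 h and 3 h of 0.19 and 0.45 for Gucy1a1 and 0.33 for Gucy1b1, none of which passed the test. The 8 smooth muscle markers summed to 18999 to 27177 at 3 h and 13167 to 20681 at 12 h, against 19284 to 23314 in control. Des and Actg2 among them were called lower at 12 h than at 3 h (limma adjusted p = 0.0218 and 0.0247), where 4.08% of all genes were called. The part of smooth muscle in the Gucy1a1 and Gucy1b1 values was not tested.

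**Figure D4:**
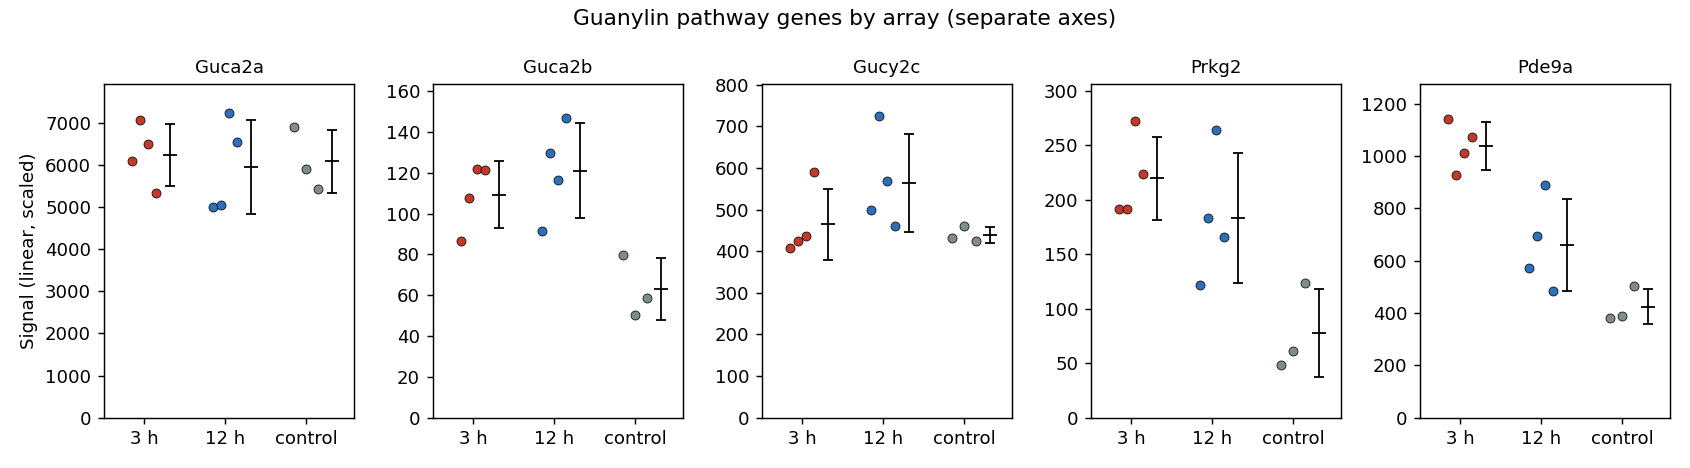
Signal of the guanylin and uroguanylin genes, their receptor Gucy2c, the kinase Prkg2 and the phosphodiesterase Pde9a on every array (linear scale, separate axes from 0), with the mean ± SD beside the points. The 3 h arrays of Pde9a (926.2 to 1142.3) and Prkg2 (191.1 to 272.1) lie above their controls, and those of Guca2a and Gucy2c overlap theirs.

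Of the 12 other carbonic anhydrase genes, all measured, Car12 rose at 3 h, where 1.43% of all genes rose. No other was called in any comparison by limma. In the 3 comparisons 2, 3 and 1 of the 12 had an unadjusted p under 0.05, where 15%, 15.8% and 17.7% of all genes did. Car12, a membrane isoenzyme with an extracellular active site, had signals of 222.1, 224.5, 237.9 and 201.8 at 3 h, against 107.3, 121.3 and 130.1 in control (log2 change 0.81 ± 0.16 SE; limma adjusted p = 0.022). That call was lost without control replicates 1 or 2 (adjusted p = 0.108 and 0.0784) or 3 h replicates 1 to 3 (0.0555, 0.0588 and 0.0659). At 12 h its signals of 135.2, 163.6, 247.2 and 195.3 were also above the controls (0.54 ± 0.16 SE; adjusted p = 0.118). Car13, a cytosolic isoenzyme, averaged 165.6 ± 34.7 (SD, n = 4) at 12 h against 111.9 ± 3.59 (SD, n = 3) in control (adjusted p = 0.161).

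Among 17 measured genes of other Slc26 and Slc4 anion exchangers and bicarbonate transporters, 1 was called, Slc26a7. It was called downward at 12 h against both 3 h and control, where 4.08% and 1.62% of all genes were called. Its signals of 0.5, 3.4, 0.3 and 7.4 at 12 h, against 11.1 to 16.6 at 3 h and 11.2 to 14.5 in control, were all near or below the offset. A second probe set gave −0.11 against 3 h and 0.35 against control, and the call against control was lost without any 1 of 9 arrays, all but 3 h replicate 1 and 12 h replicate 4 (limma adjusted p at most 0.135). The basolateral bicarbonate cotransporter Slc4a4 averaged 450.3 ± 47.4 (SD, n = 4) at 3 h and 432.1 ± 105 (SD, n = 4) at 12 h, against 353 ± 147 (SD, n = 3) in control. It did not pass the test (limma adjusted p = 0.499 and 0.605), and the second apical exchanger Slc26a6 had mean signals under 16. None of 13 measured genes of other proton exchangers and their scaffolds was called by limma in any comparison, and 0, 2 and 2 had an unadjusted p under 0.05 (15%, 15.8% and 17.7% of all genes). The scaffold gene Slc9a3r1, which tethers Slc9a3 and Cftr at the apical membrane, averaged 2329 ± 431 (SD, n = 4) at 3 h and 2852 ± 356 (SD, n = 4) at 12 h, against 2097 ± 112 (SD, n = 3) in control (adjusted p = 0.751 and 0.161). Pdzk1, another scaffold, had mean signals of 0.8 to 1.275.

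Of 13 measured partners of chloride secretion, Kcnq1 rose at 12 h, where 0.781% of all genes rose. It encodes a basolateral potassium channel, and it had signals of 248.6, 288.1, 294.1 and 263.9 at 12 h, against 193.6, 168.5 and 136.4 in control (log2 change 0.68 ± 0.12 SE; limma adjusted p = 0.0185), a call lost without control replicate 2 or 12 h replicates 2 or 3 (adjusted p = 0.0769, 0.051 and 0.055). It was also higher at 12 h than at 3 h (0.50 ± 0.11 SE; limma adjusted p = 0.0252), which was lost without 3 h replicates 1 to 3 or 12 h replicates 2 or 3 (at most 0.0763). The basolateral chloride loader Slc12a2 averaged 2185 ± 224 (SD, n = 4) at 3 h and 1854 ± 351 (SD, n = 4) at 12 h, against 1958 ± 271 (SD, n = 3) in control, and was not called.

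In the list of 9 genes of short-chain fatty acid, water and proton transport, the colonic proton pump Atp12a fell at 3 h, to signals of 523.3, 428.7, 397.8 and 472.0 against 1853.4, 1835.8 and 2114.3 in control (log2 change −2.05 ± 0.21 SE; limma adjusted p = 0.000401). At 12 h they were 2855.5, 2964.2, 1669.3 and 3699.1, which overlapped the controls (log2 change 0.48 ± 0.21 SE; limma adjusted p = 0.306). The difference between 12 h and 3 h was 2.53 ± 0.20 (SE; adjusted p = 2.73e-05). The short-chain fatty acid carrier Slc16a1 fell at 12 h, to 1444 ± 371 (SD, n = 4) against 2693 ± 544 (SD, n = 3) in control (−0.90 ± 0.19 SE; limma adjusted p = 0.0367), a call lost without any 1 of 9 arrays, all but control replicate 3 and 12 h replicate 4 (at most 0.147). Adjusted over all probe sets, the limma p of Slc16a1 at 12 h was 0.0509. Its second probe set, at a mean signal of 7.291, gave −0.11 ± 0.23 (SE). The water channel Aqp1 rose at 3 h (0.62 ± 0.15 SE; limma adjusted p = 0.0492), a call lost without any 1 of 8 arrays, all but control replicate 3, 3 h replicate 1 and 12 h replicate 1 (at most 0.179). In all, 74 genes of these 6 lists were measured, of which 4 rose and 2 fell at 3 h, 1 rose and 2 fell at 12 h, and 4 rose and 2 fell between 12 h and 3 h. The called share of these genes was 8.11%, 4.05% and 8.11%, against 2.54%, 1.62% and 4.08% of all genes. The lists were chosen with earlier results of these data known, so these shares do not test the lists.

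Markers of colon region and of other cells also differed between the groups. Among 10 Hox genes of the posterior clusters, known as markers of distal colon, 4 fell at 3 h (Hoxb13, Hoxd13, Hoxa13 and Hoxd10), where 1.11% of all genes fell. Each of these calls was lost without control replicate 1 (limma adjusted p = 0.0788, 0.0892, 0.115 and 0.135). That of Hoxd13 was also lost without 3 h replicate 2 (0.0514), and those of Hoxa13 and Hoxd10 without any 1 of several other arrays (at most 0.131). Hoxb13, Hoxd13, Hoxa13 and Hoxd10 were also called higher at 12 h than at 3 h (limma adjusted p = 0.0111, 0.0267, 0.0242 and 0.00292), where 4.08% of all genes were called. Between these times the calls of Hoxb13 and Hoxd10 held with any 1 array left out (at most 0.0389). Those of Hoxd13 and Hoxa13 were each lost without any 1 of 5 arrays (at most 0.0718). The summed signal of the 10 posterior genes was 849.9 to 1259 at 3 h and 1706 to 1980 at 12 h, against 1747 to 2280 in control. The 10 measured anterior Hox and proximal genes summed to 459.4 to 726.7 at 3 h and 488.5 to 716.4 at 12 h, against 328.8 to 427 in control, so that both times lay above the controls, as for Car8, Slc9a3 and Guca2b. Of these genes 2 rose at 3 h (Hoxb3 and Osr2) and 3 at 12 h (Hoxb3, Hoxb6 and Osr2), where 1.43% and 0.781% of all genes rose. Osr2 had log2 changes of 2.14 ± 0.42 and 2.40 ± 0.42 (SE; limma adjusted p = 0.0204 and 0.0185). The 10 small intestine markers summed to 4235 to 6143 at 3 h and 4342 to 6244 at 12 h, against 3959 to 4234 in control, with 4 of them at mean signals under 16. Alpi among them rose at 3 h and Slc5a1 at 12 h (limma adjusted p = 0.0499 and 0.0176). How the calls of the anterior, proximal and small intestine genes depend on single arrays was not tested. The 10 measured crypt and proliferation markers summed to 941.5 to 1723 at 3 h and 745.1 to 1519 at 12 h, against 1763 to 2214 in control. Of them 2 fell at 3 h (Bub1b and Hmmr) and 4 at 12 h (Bub1b, Hmmr, Mki67 and Cdk1), where 1.11% and 0.835% of all genes fell. Their median log2 change was −0.54 at 3 h and −0.83 at 12 h. How these calls depend on single arrays was not tested. At 12 h 5 of 8 fibroblast markers fell (Col1a1, Col1a2, Col3a1, Col6a3 and Lum), where 0.835% of all genes fell, with sums of 7290 to 8139 at 12 h and 10300 to 11658 at 3 h, against 10705 to 13889 in control. The calls of Col3a1 and Col6a3 held with any 1 array left out (limma adjusted p at most 0.0378), that of Col1a2 was lost without control replicate 1 (0.0649), and those of Col1a1 and Lum without any 1 of several arrays (at most 0.16 and 0.104). The 8 measured fat markers summed to 3107 to 4385 at 3 h and 1904 to 4336 at 12 h, against 1810 to 2268 in control, with no overlap at 3 h. Their median log2 change was 0.76 at 3 h and 0.36 at 12 h. Fabp4, the fatty acid carrier of fat cells, averaged 1136 ± 237 (SD, n = 4) at 3 h and 1112 ± 293 (SD, n = 4) at 12 h, against 494.5 ± 68.8 (SD, n = 3) in control (limma adjusted p = 0.0161 and 0.0276). Both Fabp4 calls were lost without control replicates 2 or 3, the 3 h call also without 3 h replicates 2 or 3, and the 12 h call also without control replicate 1 or 12 h replicate 3 (at most 0.0695 and 0.105). Of the 19 colonocyte markers 2 rose at each time and none fell, where 1.43% of all genes rose at 3 h and 0.781% at 12 h. The basolateral bile acid transporter subunit Slc51a averaged 322.1 ± 36.6 (SD, n = 4) at 3 h and 290.2 ± 97.1 (SD, n = 4) at 12 h, against 41.73 ± 36.6 (SD, n = 3) in control (log2 change 2.72 ± 0.35 and 2.52 ± 0.35 SE; limma adjusted p = 0.002 and 0.00578). Tmigd1, an epithelial adhesion molecule, averaged 1961 ± 405 (SD, n = 4) at 3 h and 2004 ± 379 (SD, n = 4) at 12 h, against 715.2 ± 237 (SD, n = 3) in control (limma adjusted p = 0.00697 and 0.0101), and its 12 h call was lost without control replicate 2 (0.0537). None of these markers was at exactly 0 on any array. The part of these differences in the values of Car8, Slc9a3 and Guca2b was not tested, except that the posterior Hox score was put in the fit. With it as a covariate the Car8 change was 0.02 ± 0.55 on the log2 scale (SE; limma adjusted p = 0.999) at 3 h and 1.74 ± 0.23 (SE; adjusted p = 0.00617) at 12 h. Slc9a3 had 0.08 ± 0.35 (SE; limma adjusted p = 0.997) and 0.67 ± 0.15 (SE; adjusted p = 0.0515). Guca2b had 0.69 ± 0.42 (SE; limma adjusted p = 0.928) and 0.80 ± 0.18 (SE; adjusted p = 0.053). Since the score ran from 5.983 to 6.214 at 3 h and from 6.451 to 6.689 in control, with no overlap, the covariate partly restates the group at 3 h, and the SE of Car8 was 0.55 there, against 0.27 without it. At 12 h the score, at 6.499 to 6.583, lay inside the control range, so the covariate could move the 12 h values little. The anterior Hox and proximal genes were not put in the fit.

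The genes whose levels over the 11 arrays were most like those of the called members were found by the root mean square difference of centred log2 values. The choice used the same arrays, so the calls of these genes are not independent of the member's call. For Car8, whose own SD over the arrays was 0.822, they were Hkdc1 (a hexokinase family gene, 0.276), the sulfate transporter Slc13a1 (0.305) and the nucleotide sugar transporter Slc35d1 (0.321). Hkdc1 had signals of 150.4 to 185.9 at 3 h and 146.1 to 280.2 at 12 h, against 27.5 to 73.0 in control, and was called at both times (limma adjusted p = 0.00587 and 0.00397). Slc35d1 was called at both times too (adjusted p = 0.00125 and 0.00229), and Slc13a1 at 12 h (0.0138, lost without control replicates 1 or 2 at 0.0633 and 0.0769). Dimmer probe sets of Hkdc1, Slc13a1 and Slc35d1 gave log2 changes at 12 h of −0.165, 0.201 and 0.197, none of which passed the test. For Guca2b, with an SD of 0.408, they were the enteroendocrine granule gene Chga (0.165), the epoxide hydrolase Ephx2 (0.173) and the aminotransferase Kyat1 (0.180). Of these Kyat1 was called, at 12 h (limma adjusted p = 0.0295, lost without control replicates 2 or 3 or 12 h replicates 2 or 3, at most 0.132), and Chga had signals of 169.6 to 247.0 at 3 h and 146.3 to 253.3 at 12 h, against 114.8 to 132.9 in control. With the mean over its probe sets the log2 change of Kyat1 at 12 h was 0.43 ± 0.13 (SE; limma adjusted p = 0.14), against 0.858 at its brightest.

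Among themselves the members differed in how far replicate arrays scattered. The pooled SD within groups on the log2 scale ran from 0.149 for Slc26a3 and 0.174 for Slc9a2 to 0.316 for Car1 and 0.416 for Car8, with a median of 0.215, against 0.195 over all genes. Over the 11 arrays the range was 2.62 log2 units for Car8, 1.29 for Guca2b and 1.15 for Slc9a3, and between 0.51 and 0.99 for the other 7. Of single arrays, 12 h replicate 3 was highest for 3 members (Car1, Slc26a3 and Guca2a), and 12 h replicate 1 was lowest for 3 (Car2, Slc9a2 and Guca2a). Both are among the arrays high in pancreatic transcripts, and the part of those transcripts in the scatter was not tested.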

How the data were processed

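Total RNA of mouse colon was hybridised to 11 Affymetrix arrays, and groups were taken from the sample labels. The deposited values are linear intensities, 1 per probe set, which the authors had scaled to a 2% trimmed mean of 100 on each array, as the values themselves show. The summary software is not given in the sources used here. Of 45101 probe sets, 34945 carried a single gene symbol in the platform annotation, 932 several and 9160 none (64 were array controls). Each of 18193 genes was represented by its probe set of highest mean signal. log2(signal + 16) was fitted in 1 linear model over all 11 arrays with limma 3.58.1 in R 4.3.3 (8 residual and 3.98 prior degrees of freedom), and p-values were adjusted over all genes by Benjamini-Hochberg with a threshold of 0.05. Folds are on the log2(signal + 16) scale, which understates the change of dim genes. The procedure was tested on simulated data. No array pair of 55 held identical values. Same-numbered arrays of different groups did not deviate together in all pairs (r from -0.38 to 0.54, over 0.1 in 4 of 10), so the numbers were not used as pairs. Members and gene lists were chosen with earlier results of these data known. Besides the 10 members, the genes named are those that fixed lists of transport partners contributed by being called or by a preset choice (Gucy2c, Slc12a2, Slc9a3r1, Pdzk1, Slc26a6, Slc4a4 and Car13), and the 3 genes closest to each called member in root mean square difference. Marker genes of region and cell type were named after their values were seen. Alternatives changed the offset, normalization, filter, probe-set rule, arrays and covariates.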

Additional observations from a re-analysis of the deposited data

Results flagged for a closer look

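The 12 h arrays of Slc9a3 held a low array. Replicate 4 had a signal of 1327.5, against 1690.6, 1765.7 and 1765.9 on the other 12 h arrays, and on the log2(signal + 16) scale its gap to the nearest of them was 0.847 of the group's range (Dixon's 95% critical value for 4 samples is 0.829). On the linear signals the same ratio was 0.828, just under that value. Of the 10 genes at 3 h and at 12 h, 20 groups were tested, and chance flags about 1 in 20. Without this array the log2 change of Slc9a3 at 12 h was 0.77 ± 0.15 (SE; limma adjusted p = 0.0286). The cause of the low value was not tested.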

How the results depend on the processing

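Among the genes refitted under every alternative, 1 called gene changed direction: with the posterior Hox score as a covariate, Hoxd13, itself part of that score, had log2 changes of 0.0217 at 3 h against control and -0.25 at 12 h against 3 h. Of the 10 genes, 1 was called at 3 h, and this became 0 with an offset of 1, with all probe sets as features, with the mean over the probe sets of a gene, with the 2 groups of the contrast only, with the posterior Hox score as a covariate and without the 5 arrays high in acinar transcripts. It became 2 with array weights and 3 with a filter on a mean signal of at least 50 or with a trended robust prior. At 12 h 2 members were called, which became 1 with an offset of 1, all probe sets, 2 groups only or the Hox covariate, 0 without the acinar-high arrays, and 3, with Slc9a3 added, with an offset of 64, the filter, the mean over probe sets or the trended prior (adjusted p of Slc9a3 0.0371, 0.0215, 0.0415 and 0.0181). Between 12 h and 3 h 0 became 1 (Cftr) with the filter, 2 groups only or the trended prior. Leaving out 1 array in turn gave 0 to 2, 1 to 2 and 0 to 1 members in the 3 comparisons.

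Over all genes, 463 calls at 3 h became 228 with an offset of 1, 0 with the Hox covariate and 80 without the acinar-high arrays. The 294 calls at 12 h became 80 with an offset of 1, 492 with an offset of 64, 619 with the filter, 60 with 2 groups only, 527 with the trended prior and 8 without the acinar-high arrays. The 742 calls between 12 h and 3 h became 437 with an offset of 1, 1 with the Hox covariate and 16 without the acinar-high arrays. Leaving out 1 array gave 161 to 520, 63 to 449 and 391 to 755. With the replicate block, which the arrays' deviations did not bear out as a pairing, 278, 182 and 467 genes and 1, 2 and 0 members were called, the 2 at 12 h being Car8 and Slc9a3. The set of acinar-high arrays was chosen after seeing the data and leaves a single 12 h array. The causes of these shifts were not tested. With 3 or 4 arrays a group, where an interval includes 0 a change of a size inside it was not excluded here.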
